A study of Rattus norvegicus with 4 samples.

Results

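This section concerns 10 rat genes for adhesion molecules through which white blood cells leave the circulation, taken by their gene symbols from the 17899 genes of the table. They are the selectin genes Sele and Selp, the selectin ligand gene Selplg, the immunoglobulin-family genes Icam1, Icam2 and Vcam1, and the junctional adhesion molecule genes F11r, Jam2, Jam3 and Jaml. All 10 were present under the same NCBI Gene ID in a RefSeq gene table, and all 10 passed the filter of at least 1 TPM in at least 2 libraries. The 4 bulk libraries were made from synovium, the lining tissue of the joint, of rats whose disease state was given as osteoarthritis. By their treatment labels, AdMSC 1 received human AdMSCs, SyMSC 1 received human SyMSCs, and PBS 1 and PBS 2 received PBS, a salt buffer. The titles of PBS 1 and PBS 2 also carry the word mix, which the labels do not explain. MSC usually stands for mesenchymal stem or stromal cell, with Ad and Sy for adipose and synovial origin, although the labels do not spell the names out. The tissue was collected 1 day after the injection, strain and age were not given in the sources used here, and the titles pair AdMSC 1 with PBS 1 and SyMSC 1 with PBS 2.

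A white blood cell slows by rolling on selectins, stops when its integrins bind ICAM and VCAM proteins on the vessel wall, and then passes the junctions between endothelial cells, where JAM proteins lie. E-selectin (Sele) is made by endothelium on activation, whereas P-selectin (Selp) is also stored in endothelial and platelet granules and released at once. PSGL-1 (Selplg) and JAML (Jaml) sit on the white blood cell itself. In inflamed synovium, ICAM-1 and VCAM-1 are also known on fibroblasts and macrophages, so their transcripts do not report on endothelium alone.

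Values are TPM, shares of a library's transcripts corrected for gene length, so levels of different genes can be compared, while the read depth is unknown and no counting error can be given. Between 12582 and 13155 genes reached 1 TPM in a library. A log2 change is the mean of log2(TPM + 1) in the injected libraries minus that in the PBS libraries, tested with limma over 13371 genes and called at a Benjamini-Hochberg adjusted p under 0.05. The labels do not state whether each library is a separate animal, so each p measures at most the spread between these libraries. For each gene limma sets that spread partly from all genes, and the injected arm (n = 2) joins 2 cell sources. Of the genes tested, 48.4% were called, 23.7% higher and 24.7% lower. An exact permutation test of 2 libraries against 2 cannot go below p = 0.333, so no such test was used.

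After injection, genes of the white blood cell side stood higher and most genes of the vessel wall stood lower or near their PBS level. Selplg rose about 6-fold, Vcam1, F11r, Jam2 and Jam3 fell 3.23-fold to 3.86-fold, and Sele, Selp, Icam1, Icam2 and Jaml did not pass the test. That is 1 member higher, 4 lower and 5 not called, and the share called, 5 of 10, lies near the 48.4% of all genes. Among the members, Selplg alone was called higher, and none of the 8 members of the vessel wall was. The arms did not overlap for 8 members and overlapped for Sele and Selp, beside 78.8% of all tested genes whose arms did not overlap.

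**Figure D1:**
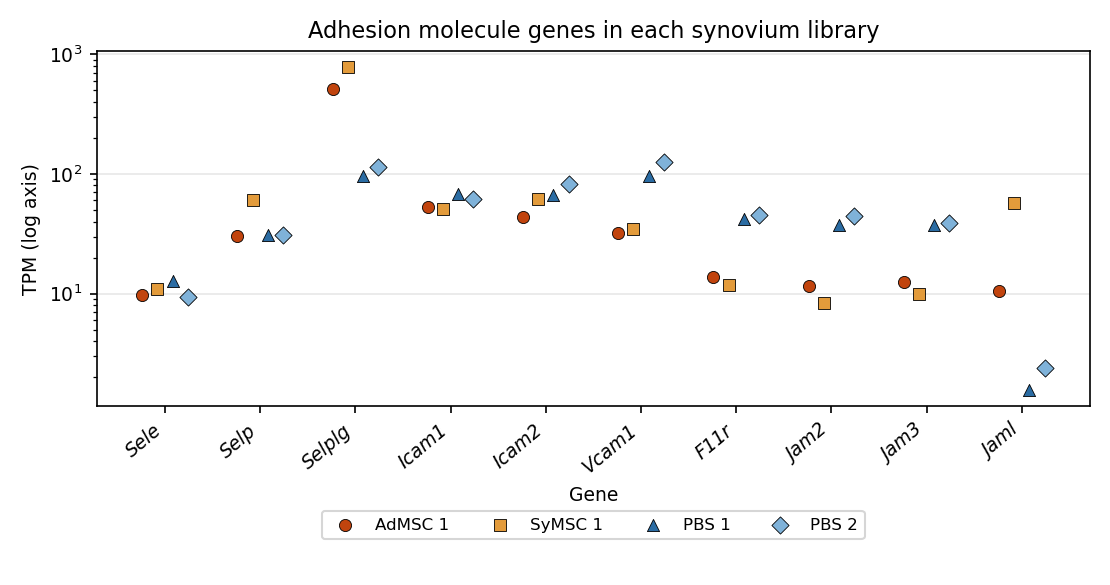
TPM on a log axis for each of the 10 genes, with 1 point per library and the injected libraries in red and orange. Vcam1, F11r, Jam2 and Jam3 lie lower in both injected libraries, Selplg and Jaml lie higher, and the points of Sele and Selp overlap between arms.

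Sele (gene ID 25544), the E-selectin gene, was one of the lowest members, with 9.79 TPM in AdMSC 1, 10.9 in SyMSC 1 and, in PBS 1 and PBS 2, 12.7 and 9.31. Both injected values lay between the PBS values. The log2 change was -0.07 (SE 0.19, 95% interval -0.52 to 0.38, limma adjusted p = 0.772), and without PBS 1 it was 0.14, still not called (limma adjusted p = 0.657).

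Selp (gene ID 25651), the P-selectin gene, stood at 30.4 TPM in AdMSC 1, 60.1 in SyMSC 1 and, in PBS 1 and PBS 2, 30.7 and 31.1. SyMSC 1 alone was high, and AdMSC 1 was the lowest of all by a small margin. The log2 change of 0.46 (SE 0.33, 95% interval -0.40 to 1.31, limma adjusted p = 0.302) rested on that library. It was -0.02 without SyMSC 1 and 0.94 without AdMSC 1, each with a single injected library and so no spread within that arm. Platelets carry P-selectin too. The 12 platelet genes summed to 68.7 and 107 TPM in AdMSC 1 and SyMSC 1 and to 57.4 and 60.7 TPM in PBS 1 and PBS 2. Most of each sum was Pf4, which was not called. It stood at 53.4 and 80.4 TPM in AdMSC 1 and SyMSC 1 and at 47.0 and 54.2 TPM in PBS 1 and PBS 2. In that list 3 of 6 tested genes rose, 1 fell and 2 were not called. Gp6 rose from 0.68 and 0.92 TPM in PBS 1 and PBS 2 to 5.85 and 7.3 TPM in AdMSC 1 and SyMSC 1. In the same order Itgb3 rose from 2.68 and 1.83 to 5.98 and 10.9 TPM. Treml1 rose from 0.76 and 0.88 to 2.47 and 2.39 TPM. The integrin gene Itga2b, which defines platelets, fell from 2.21 and 1.59 to 0.34 and 0.60 TPM (limma adjusted p = 0.0105). Without AdMSC 1, with SyMSC 1 the only injected library, its log2 change was -0.85, beside -0.98 with all libraries. Gp1ba and Gp5 were at 0.28 TPM or less in every library. The part of platelets in the level of Selp was not tested.

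Selplg (gene ID 363930), which encodes the ligand that selectins grip, stood at 511 TPM in AdMSC 1, 782 in SyMSC 1 and, in PBS 1 and PBS 2, 96.1 and 113. Both injected libraries were far above both PBS libraries, and it was the most abundant member after injection, whereas Vcam1 stood slightly higher in both PBS libraries. The arm means were 646 ± 192 TPM after injection and 105 ± 12.2 TPM with PBS (SD, n = 2), and the log2 change was 2.59 (SE 0.22, limma adjusted p = 0.000649).

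Icam1 (gene ID 25464) encodes the endothelial and stromal ligand of the leukocyte integrins LFA-1 and Mac-1. Its values were 52.9 TPM in AdMSC 1, 50.4 in SyMSC 1 and, in PBS 1 and PBS 2, 67.5 and 62.1. The injected libraries were lower by a narrow margin, with a log2 change of -0.32 (SE 0.12, 95% interval -0.62 to -0.02, limma adjusted p = 0.0724). Under upper quartile scaling it was called lower (-0.37, limma adjusted p = 0.036).

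Icam2 (gene ID 360647), an LFA-1 ligand present on resting endothelium, stood at 43.9 TPM in AdMSC 1, 61.7 in SyMSC 1 and, in PBS 1 and PBS 2, 66.7 and 82.5. The arms did not overlap, but SyMSC 1 came close to PBS 1. The log2 change was -0.50 (SE 0.20, 95% interval -0.99 to -0.02, limma adjusted p = 0.0802). Without SyMSC 1, with AdMSC 1 the only injected library, it was -0.74. The Icam2 locus overlaps Prr29 in the RefSeq annotation, which held at most 1.27 TPM in a library.

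Vcam1 (gene ID 25361) encodes the ligand of the integrin VLA-4, which monocytes and lymphocytes carry. It stood at 32.2 TPM in AdMSC 1, 34.9 in SyMSC 1 and, in PBS 1 and PBS 2, 96.7 and 126, so the injected libraries were close to each other and well below both PBS libraries. The arm means were 33.5 ± 1.89 and 111 ± 20.8 TPM (SD, n = 2), and the log2 change was -1.69 (SE 0.16, limma adjusted p = 0.000769).

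The junctional genes fell together. F11r (gene ID 116479), which encodes JAM-A of endothelial and epithelial tight junctions, stood at 13.8, 11.8, 42.0 and 45.5 TPM in AdMSC 1, SyMSC 1, PBS 1 and PBS 2. Jam2 (gene ID 619374), for the endothelial protein JAM-B, stood at 11.6, 8.30, 37.2 and 44.6 TPM in the same order. Jam3 (gene ID 315509), for its partner JAM-C, stood at 12.5, 9.87, 37.3 and 39.1 TPM. In all 3 genes SyMSC 1 was the lowest library and the arms were far apart. The log2 changes were -1.70 (SE 0.14, limma adjusted p = 0.000521) for F11r, -1.95 (SE 0.19, limma adjusted p = 0.000813) for Jam2 and -1.69 (SE 0.15, limma adjusted p = 0.000668) for Jam3. The calls of these genes, of Vcam1 and of Selplg held under every scaling, filter, pseudocount and left-out library that was tried.

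Epithelium also carries JAM-A. Of 7 epithelial genes found, 2 were tested, 1 higher (Cldn4) and 1 lower (Krt8), their sum lay between 3.84 and 14.8 TPM in each library, and Epcam reached at most 0.25 TPM.

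Jaml (gene ID 315610), which encodes a leukocyte protein that binds the receptor CAR on other cells, stood at 10.6 TPM in AdMSC 1, 57.0 in SyMSC 1 and, in PBS 1 and PBS 2, 1.56 and 2.41. Both injected libraries were above both PBS libraries, but they differed from each other about 5-fold. With that spread the log2 change of 3.13, the largest among the members, had an SE of 0.95 and a 95% interval of 0.20 to 6.06 and was not called (limma adjusted p = 0.0774). Jaml was called higher without AdMSC 1 (4.30, limma adjusted p = 0.000727) or without SyMSC 1 (1.97, limma adjusted p = 0.00762), where the injected arm holds 1 library whose spread is assumed to be that of the PBS arm. It was called as well when genes below the filter were kept in the fit (limma adjusted p = 0.0426). A pseudogene overlaps its locus in the RefSeq annotation and was not analysed here.

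The order of the levels changed with these shifts. In the PBS libraries Vcam1 and Selplg were highest, and in PBS 1 they differed by less than the spread between the PBS libraries. Icam2 and Icam1 followed, with values from 62.1 to 82.5 TPM that overlapped, then F11r, Jam2 and Jam3 with overlapping values from 37.2 to 45.5 TPM, then Selp, Sele and Jaml. In the injected libraries Selplg stood far above the rest, Icam1 and Icam2 came next with Selp at an overlapping level in SyMSC 1, and Vcam1 followed at 32.2 and 34.9 TPM. F11r, Jam2, Jam3 and Sele overlapped between 8.30 and 13.8 TPM, and Jaml was among them in AdMSC 1 but not in SyMSC 1.

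The next question was which of these genes followed the endothelium of the tissue and which stood apart from it. Endothelial genes as a group were about 2.94-fold lower after injection. Of 23 tested genes of the endothelial list, 22 fell and 1, the receptor tyrosine kinase gene Tie1, was not called (median log2 change -1.66, beside 0.00 over all tested genes). Pecam1, for the junctional protein CD31, stood at 45.1, 33.6, 145 and 173 TPM in AdMSC 1, SyMSC 1, PBS 1 and PBS 2, Cdh5, for VE-cadherin, at 26.0, 21.3, 67.2 and 70.7 TPM, and Vwf, whose product is stored with P-selectin, at 7.31, 8.37, 35.5 and 37.0 TPM. The 4 genes with the largest falls were Cldn5 (-2.41), Emcn (-2.16), Clec14a (-2.08) and Vwf (-2.08). The summed list was 754 and 825 TPM in the injected libraries and 1883 and 2081 TPM in the PBS libraries, and Robo4 was listed at 0 in both PBS libraries. In a bulk sample fewer endothelial cells and less RNA per endothelial cell cannot be told apart, and a gain of other cells lowers every endothelial share.

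The log2 changes of Vcam1, F11r, Jam2 and Jam3 lay within the range of the endothelial list, and those of Sele and Selp lay above all 23 of its genes. When the mean log2(TPM + 1) of the endothelial list was subtracted in each library, Vcam1 (-0.14, 95% interval -0.54 to 0.27), F11r (-0.15, -0.53 to 0.23), Jam3 (-0.14, -0.53 to 0.25) and Jam2 (-0.39, -0.79 to 0.01) did not pass the limma test. Their limma adjusted p was 0.5, 0.438, 0.471 and 0.0589. On the same scale Sele was higher by 1.48 (SE 0.23), Selp by 2.01 (SE 0.48), Icam1 by 1.23 (SE 0.18), Icam2 by 1.05 (SE 0.24) and Selplg by 4.14 (SE 0.28). Their limma adjusted p was 2.73e-05, 0.0238, 1.13e-05, 0.00202 and 5.89e-06, and Jaml (4.69, SE 1.23) was not called (limma adjusted p = 0.0603).

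That scale has to be read against its own background. Because the reference itself fell, 86.2% of all tested genes were called higher on it and 2.62% lower, and the median gene stood at 1.56. The 5 members called higher were thus a smaller share than among all genes. The result says that Sele, Selp, Icam1 and Icam2 did not fall as far as the mean of the endothelial list, not that their transcripts increased. Genes of that list were themselves called on this scale, among them Tie1 (1.24) and Eng (1.19) higher and Pecam1 (-0.44) and Vwf (-0.52) lower. A call on it therefore does not set a gene apart from endothelial genes. Without PBS 1, Icam2 was not called (0.95, limma adjusted p = 0.0558). Jam2 was called lower when the reference kept only list genes with a mean of at least 10 TPM (-0.42, limma adjusted p = 0.0445). Without AdMSC 1, with SyMSC 1 the only injected library, Jam2 stood at -0.49 and Jaml at 5.97. Without SyMSC 1 Jaml stood at 3.40.

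Sele lay at 0.564 and 0.732 of the endothelial level in AdMSC 1 and SyMSC 1 and at 0.275 and 0.192 of it in PBS 1 and PBS 2. Selp lay at 1.64 and 3.76 times that level in the injected libraries and at 0.636 and 0.597 of it with PBS. For both selectin genes each injected library was above each PBS library on this scale, and SyMSC 1 was the highest. The same held for Icam1, Icam2, Selplg and Jaml, so this order is not particular to the selectin genes. The endothelial level itself, a geometric mean of TPM + 1, was lowest in SyMSC 1. It was 19.1, 16.2, 49.9 and 53.7 in AdMSC 1, SyMSC 1, PBS 1 and PBS 2, so a gene with a flat level peaks in SyMSC 1 on this scale. The share of all genes with this order was not counted. Vcam1 lay at 1.73 and 2.21 times the endothelial level after injection and at 1.96 and 2.37 times with PBS, so these values overlapped.

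**Figure D2:**
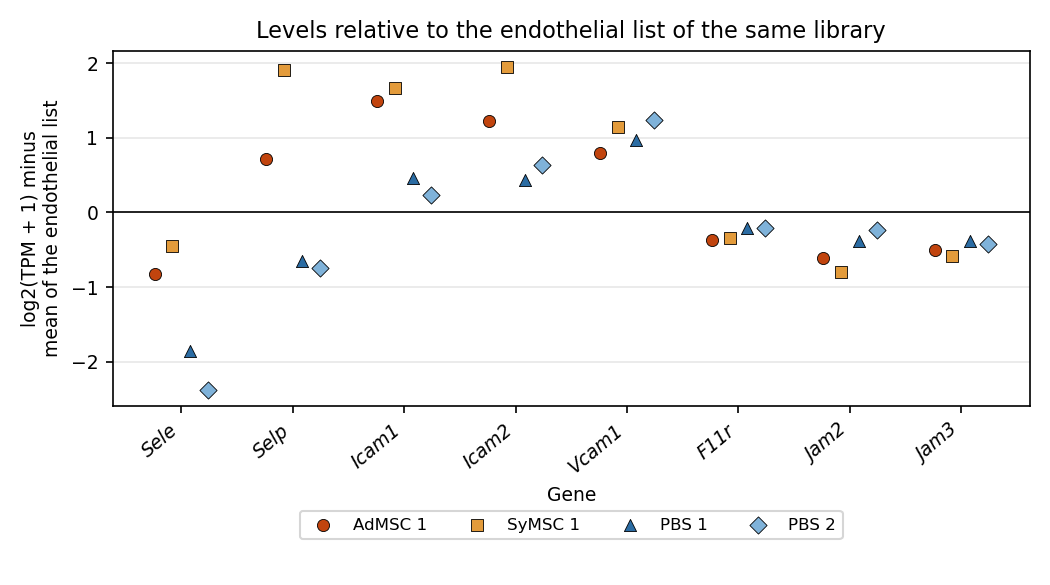
For 8 genes of the vessel wall, log2(TPM + 1) in a library minus the mean of the endothelial list in that library, with 1 point per library. The injected points of Sele, Selp, Icam1 and Icam2 lie above the PBS points, while those of Vcam1 overlap them and those of F11r, Jam2 and Jam3 lie slightly below.

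The endothelial list was itself uneven. Tie1 (-0.31) and the endoglin gene Eng (-0.36) changed about as little as Icam1, so Icam1 lay above 22 and Icam2 above 21 of the 23 genes, within the range of the list. Vcam1, F11r and Jam3 each lay above 11 of the 23, and Jam2 above 7. The fibroblast list, for cells that can carry VCAM-1 and ICAM-1, fell in 8 of 12 cases with 4 not called, and its sum went from 39302 and 32110 TPM in PBS 1 and PBS 2 to 17146 and 11667 TPM in AdMSC 1 and SyMSC 1. The mural list, for pericytes and smooth muscle, fell in 12 of 12 cases (median -1.96), and its sum from 3371 and 4284 TPM to 960 and 752 TPM. Of 7 tested Schwann cell genes, 4 fell, 1 rose and 2 were not called. The part of these cell types, or of white blood cells, in the levels of Vcam1, Icam1, Icam2 and the JAM genes was not tested.

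**Figure D3:**
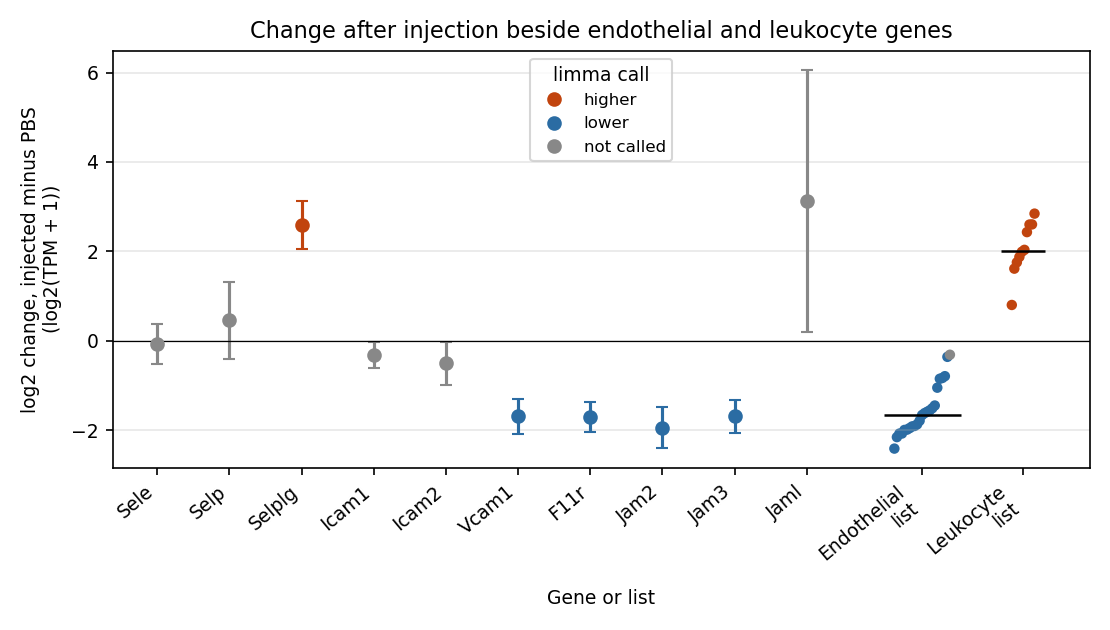
Log2 change of log2(TPM + 1), injected minus PBS, for the 10 genes with 95% intervals from limma, beside the single genes of the endothelial and the leukocyte list, whose medians are the black lines. Vcam1, F11r, Jam2 and Jam3 lie near the endothelial median of -1.66, Sele and Selp lie above every endothelial gene, and Selplg and Jaml lie in or above the range of the leukocyte genes.

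Selplg and Jaml, the genes of the white blood cell surface, stood higher after injection, as did the leukocyte genes. All 10 genes of the leukocyte list rose (median log2 change 2.01), and their sum was 2624 and 3189 TPM in AdMSC 1 and SyMSC 1 against 756 and 772 TPM in the PBS libraries. Selplg lay above 7 of the 10 and below 3, and Jaml above all 10. Relative to the mean of that list, a reference chosen after the data had been seen, Selplg stood at 2.88 and 3.53 times the leukocyte level after injection and at 2.01 and 2.42 times with PBS. On that scale its log2 change was 0.53 (95% interval -0.05 to 1.12) and was not called (limma adjusted p = 0.0779). The change of Selplg was 0.68 without AdMSC 1, with SyMSC 1 the only injected library. Jaml was called higher, by 1.08 (0.40 to 1.76, limma adjusted p = 0.00226), although its arms overlapped on this scale. It stood at 0.0651 and 0.262 of the leukocyte level in AdMSC 1 and SyMSC 1 and at 0.0530 and 0.0721 with PBS. The SE was 0.34, beside 0.95 in TPM. In this fit limma drew it largely from other genes, so this p does not measure the spread of Jaml between libraries. The same limit holds for the interval and p of Selplg (SE 0.30), whose arms did not overlap on this scale. The call of Jaml was lost without PBS 1 (0.86) or without SyMSC 1 (0.07). Because this reference rose, the median of all tested genes on the scale was -2.05, with 1.21% called higher and 93.4% lower.

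Among lists of single leukocyte types, 6 of 13 neutrophil genes rose and 7 were not called, 8 of 13 monocyte and macrophage genes rose, 2 fell and 3 were not called, and 9 of 13 T and NK cell genes rose, 1 fell and 3 were not called. The neutrophil list summed to 2590 TPM in AdMSC 1 and 4852 TPM in SyMSC 1, and to 398 and 156 TPM in PBS 1 and PBS 2.

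Genes in a list of counter-receptors on white blood cells mostly rose, though not all of the list are partners of these adhesion molecules. Of 13 tested genes of that list 9 rose and 4 were not called (Cd226, Glg1, Itgae and Itgb1), with a median log2 change of 1.62.

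The integrin genes for the chains of LFA-1 and Mac-1, the receptors of ICAM-1, rose: Itgal by 2.01, Itgam by 2.94 and their shared beta chain Itgb2 by 2.19 (log2). Itgb2 stood at 250 and 281 TPM after injection and 54.5 and 60.1 TPM with PBS. Itga4, for the alpha chain of the VCAM-1 receptor VLA-4, rose by 1.62, from 2.82 and 2.33 to 9.58 and 10.4 TPM. Its beta chain gene Itgb1, which most cells of the joint express, stood at 228 and 179 TPM after injection and 297 and 245 TPM with PBS and was not called (-0.41, limma adjusted p = 0.0917). Without AdMSC 1, with SyMSC 1 the only injected library, the log2 change of Itgb1 was -0.59. Itgb7 rose by 3.06 and Itgax by 2.64, and Itgax was lost without PBS 1 (limma adjusted p = 0.0787) or PBS 2 (0.139). Cxadr, for the JAML partner CAR, rose by 0.85 at low levels, from 1.92 and 2.50 to 4.98 and 4.59 TPM, and was lost without AdMSC 1 (limma adjusted p = 0.0604) or PBS 1 (0.0574).

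**Figure D4:**
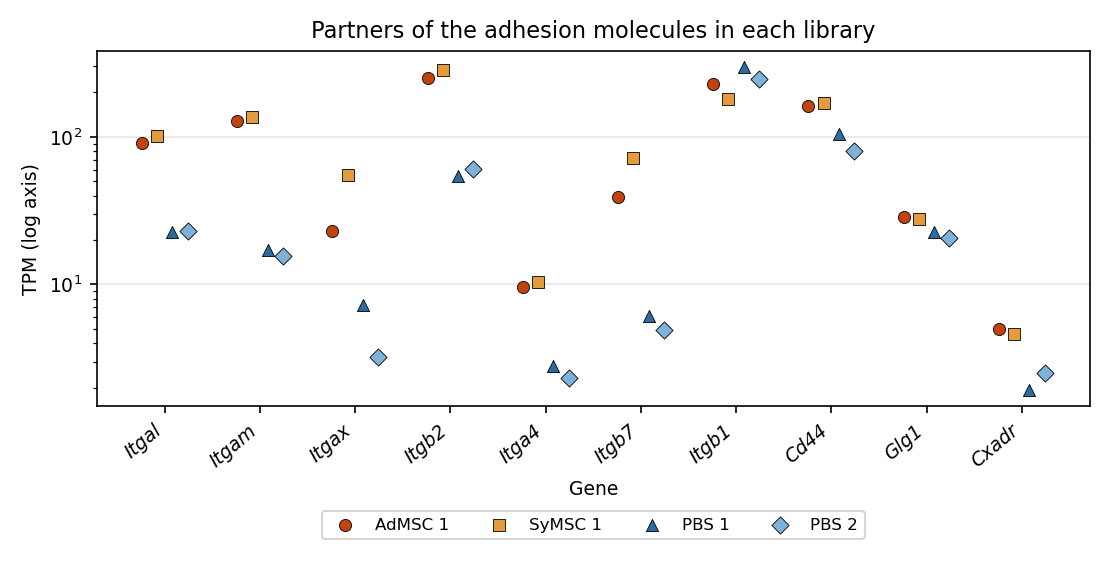
TPM on a log axis for 10 genes whose products bind the adhesion molecules, with 1 point per library. Itgal, Itgam, Itgax, Itgb2, Itga4 and Itgb7 lie higher in both injected libraries, whereas Itgb1 lies lower in both, by a narrow margin.

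PSGL-1 binds selectins only after its sugars and tyrosines have been modified. Of 11 tested genes in a general list of selectin ligand enzymes, not of PSGL-1 alone, 4 rose, 3 fell and 4 were not called. Fut7, the fucosyltransferase of leukocyte selectin ligands, rose most (1.96), from 2.26 and 1.53 TPM in PBS 1 and PBS 2 to 7.52 and 13.6 TPM in AdMSC 1 and SyMSC 1. The sialyltransferase gene St3gal6 (-0.94), the sulfotransferase gene Chst2 (-0.92) and the tyrosine sulfotransferase gene Tpst1 (-0.80) fell. The number called was 4 in place of 7 without AdMSC 1, without SyMSC 1 or without PBS 2, and Chst2 was lost without PBS 2 (limma adjusted p = 0.0527) or SyMSC 1 (0.0522).

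Inside the white blood cell, talin and kindlin-3 switch integrins on. Of 12 genes of that machinery 10 rose and 2 were not called, with a median log2 change of 1.61. They included the exchange factor gene Vav1 (2.68), the adaptor gene Fyb1 (2.39), the kindlin-3 gene Fermt3 (2.35) and the GTPase gene Rac2 (2.06).

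In a list of other adhesion genes of the vessel wall, more genes fell than rose. Of 18 genes found, 13 were tested, of which 8 fell, 3 rose and 2 were not called. Aoc3, for the amine oxidase VAP-1 on which lymphocytes adhere, fell from 172 and 247 TPM in PBS 1 and PBS 2 to 16.7 and 14.4 TPM (log2 change -3.65, SE 0.20, limma adjusted p = 0.000239). VAP-1 is also abundant in smooth muscle and fat cells. Cd34 (-2.19), Cx3cl1 (-1.79) and Podxl (-1.64) fell as well, and Alcam (1.38), Cxadr and Cd47 (0.67) rose. Madcam1, Icam4, Icam5, Stab2 and Cd99l2 stayed below the filter, and Icam4 and Icam5, the neighbours of Icam1 in the RefSeq gene order, reached at most 0.48 TPM.

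Transcription of Sele, Icam1 and Vcam1 is known to be driven by NF-kB. In the list of NF-kB subunits and feedback genes 9 of 14 rose, 1 fell and 4 were not called, with a median log2 change of 0.84. Birc3 (1.81), Sod2 (1.76), Zc3h12a (1.41) and Nfkbiz (1.28) showed the largest changes. Zc3h12a was lost without PBS 1 (limma adjusted p = 0.0955) and Nfkbiz without SyMSC 1 (0.0512). White blood cells express these genes too, and their part in the rise was not tested.

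Promoter windows in RefSeq, of the build GRCr8, were found for 5 members, Sele, Icam1, Vcam1, F11r and Jam2. They are shown for Vcam1 and F11r, which fell, and for Icam1, which was not called, so that the letters matching the NF-kB patterns can be compared. The Vcam1 window is chr2:206742784-206743033 on the minus strand, the F11r window chr13:86405979-86406228 and the Icam1 window chr8:27829595-27829687 on the plus strand. Each is written 5′ to 3′ on the strand of the gene and ends just before the annotated gene. The windows of Vcam1 and F11r hold 250 bases, and that of Icam1 was ended after 93 bases, where the annotated gene begins. Capitals mark matches on either strand to an NF-kB pattern.
Vcam1: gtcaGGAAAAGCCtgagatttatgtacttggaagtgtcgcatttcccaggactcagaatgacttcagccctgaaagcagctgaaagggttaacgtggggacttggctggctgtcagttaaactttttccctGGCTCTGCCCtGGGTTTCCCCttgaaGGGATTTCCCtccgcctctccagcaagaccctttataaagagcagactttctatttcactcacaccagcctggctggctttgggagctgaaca
F11r: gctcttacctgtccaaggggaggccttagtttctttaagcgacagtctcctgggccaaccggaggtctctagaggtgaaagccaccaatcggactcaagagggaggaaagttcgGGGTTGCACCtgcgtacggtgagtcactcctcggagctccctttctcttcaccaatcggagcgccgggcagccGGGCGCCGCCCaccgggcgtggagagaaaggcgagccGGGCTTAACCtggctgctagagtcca
Icam1: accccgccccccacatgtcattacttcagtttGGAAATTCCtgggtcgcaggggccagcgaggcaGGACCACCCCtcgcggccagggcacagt

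In the Vcam1 window GGGTTTCCCC begins 108 bases and GGGATTTCCC 93 bases before the annotated start, in tandem. In the Icam1 stretch GGAAATTCC begins at base 33 of the 93 shown. The patterns searched, on both strands, were GGG followed by 3 bases of any kind and TTCC, GGG followed by 5 bases of any kind and CC, and, added after the windows had been seen, GGNNNTTCC. Among 33469 promoter windows of 250 bases 4.53%, 42.3% and 15.4% held them. The first was matched in Jam2 alone of the 5 members, the second in Vcam1, Icam1, F11r and Jam2, and the third in Vcam1, Icam1 and Jam2. The AP-1 pattern TGANTCA, held by 6.34% of windows, was matched in F11r alone. The patterns overlap each other, so 1 site can count under several. The window of Sele, which held no match, and that of Jam2 lie inside their annotated gene spans, and the Icam1 window runs into its own, so these 3 windows belong to a later start than the first one. These matches describe letters and are not evidence of binding.

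Within each title pair, where 1 library stands against 1 and no test can be made, the members divided in the same way. In AdMSC 1 against PBS 1, Selplg and Jaml were at least 2-fold higher and Vcam1, F11r, Jam2 and Jam3 at least 2-fold lower in TPM + 1, with 5 TPM or more in the higher library. The same 6 genes met that rule in SyMSC 1 against PBS 2. In all tested genes 9% were past it upward and 9.89% downward in the first pair, and 10.4% and 12.2% in the second. Jam2 differed by a factor of 0.329 in the Ad pair and 0.204 in the Sy pair, and Vcam1 by 0.34 and 0.282.

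Between the injected libraries Jaml alone of the 10 members was past that rule, at 5.02 times the AdMSC 1 level in SyMSC 1, while 1.1% of tested genes were past it upward and 0.546% downward. Selp stood 1.94 times and Selplg 1.53 times as high in SyMSC 1, and Jam2 at 0.741 of the AdMSC 1 level. Between the PBS libraries the ratios ran from 0.751 for Sele to 1.33 for Jaml. The neutrophil sum given above was also higher in SyMSC 1 than in AdMSC 1, and its part in the levels of Jaml and Selplg was not tested. With 1 library per cell source, these differences have no replicate check.

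Genes whose log2(TPM + 1), centred on their mean over the 4 libraries, differed least from a member were sought among 10222 other genes with a mean of at least 5 TPM. Over 4 points many genes can match closely, and each likeness is given as a root mean square difference in log2 units. The nearest gene to Jam2 was Pecam1 (0.02). The nearest to Icam2 was Thbd (0.02), for the endothelial anticoagulant thrombomodulin, followed closely by Triobp (0.03) and Itm2b (0.03). Jam3 was matched by Castor1 (0.01), S100a16 (0.02) and Podxl (0.03), and F11r by Cgnl1 (0.04), for a junctional protein, followed by Jam3 (0.04). None of these matches was distinctive: within 0.1 lay 48 genes for Jam2, 26 for Icam2, 83 for Jam3 and 63 for F11r.

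Selp lay nearest to Id1 (0.05), Atg16l2 (0.07) and Arap3 (0.09), and no other gene was within 0.1 of it. Id1, for an inhibitor of transcription factors that endothelial cells express strongly, stood at 103, 205, 107 and 115 TPM in AdMSC 1, SyMSC 1, PBS 1 and PBS 2, so SyMSC 1 stood apart there as in Selp. Selplg lay nearest to Stx11 (0.03) and Arhgap30 (0.03), and Vcam1 to Entpd2 (0.04). Jaml lay nearest to the chemokine gene Ccl6 (0.13), with no gene within 0.1, whereas 752 genes lay that near to Icam1 and 103 to Sele, whose profiles are almost flat.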

How the data were processed

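The authors deposited 1 table of TPM values for rat genes, per the file headers, with 4 library columns that are each scaled to one common total, and 0 sample columns were left unused. HISAT2 2.0.4 and the rat build Rnor 6.0 are named in the submitters' processing notes, with no role stated. Counter, annotation, strand use and any step that kept human reads out of rat genes were not given in the sources, so reads of the human cells counted in rat genes cannot be judged. Per the labels' protocols, oligo-dT selected RNA was sequenced on a BGISEQ-500.

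From the TPM, log2(TPM + 1) was compared between the injected and the PBS arm (n = 2 each) by limma 3.58.1 (R 4.3.3, eBayes with trend and robust fitting). Genes needed 1 TPM or more in 2 or more libraries, the fit left 2 residual degrees of freedom, and p-values were adjusted by Benjamini-Hochberg across all 13371 genes. A second fit subtracted each library's mean over 23 endothelial genes. The fit was tested on simulated data. Of 10 rows with a repeated symbol, the higher kept it. Members and the 15 marker and pathway lists (196 of 202 entries found) were chosen with earlier results of these data known. All members were named, and partners and markers of the members whatever their values. A fixed rule picked up to 4 genes in each list, led by the biggest called changes and then by mean level. Its picks are not printed for the leukocyte, neutrophil, monocyte and macrophage, T and NK cell, fibroblast, mural and Schwann cell lists. Those lists are given as counts. In the counter-receptor list 1 gene that this rule names is not reported here. Promoters came from RefSeq (GRCr8), a different build from the table's, and were used for sequence and gene order.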

Additional observations from a re-analysis of the deposited data

Results flagged for a closer look

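Sele and Selp differed in direction between the title pairs. The log2 ratio of TPM + 1 for Sele was -0.35 in AdMSC 1 against PBS 1 and 0.20 in SyMSC 1 against PBS 2. For Selp it was -0.015 and 0.93. With 1 library on each side the difference between the pairs was not tested, and for Selp the Ad pair was level.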

How the results depend on the processing

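The number of members called was 5 in TPM. It was 5 under median-ratio (RLE) scaling, 6 under upper quartile scaling, 6 with no filter, 5 with a pseudocount of 0.1 and 5 to 7 when 1 library was left out. On the endothelial scale it was 5, with 6 when the reference kept genes with a mean of at least 10 TPM (adding Jam2) and 4 to 7 when 1 library was left out. Scaling moved the median of all genes by less than 0.1 (log2). The directions that turned belonged to genes that were not called with all libraries. With 1 library left out, Sele ranged from -0.28 to 0.14 (without PBS 1). Selp ranged from -0.022 (without SyMSC 1) to 0.94 (without AdMSC 1). Vcam1 on the endothelial scale ranged from -0.31 to 0.037 (without AdMSC 1). The cause was not tested. The title words Ad and Sy do not state a shared animal or day. The differences between AdMSC 1 and SyMSC 1 and between PBS 1 and PBS 2 correlated at 0.12 over genes. With the title arm as a replicate block, 7 members were called in TPM, adding Icam2 and Jaml (limma adjusted p = 0.0241 each), and 6 on the endothelial scale, adding Jaml. Under the block Itgax was not called (limma adjusted p = 0.0585) and Itgb1 was called lower (0.0288). TPM gives no depth, so values near 1 TPM, such as Jaml with PBS, are imprecise by an unknown amount.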
